A study of Homo sapiens with 12 samples.

Results

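The 10 genes described here encode transcription factors that drive epithelial-mesenchymal transition (EMT) and factors that hold cells in an epithelial state. SNAI1, SNAI2, ZEB1, ZEB2, TWIST1 and TWIST2 form the EMT-inducing set, and GRHL2, OVOL1, OVOL2 and ESRP1 form the epithelial set. They were chosen by gene symbol, and all 10 were found among the 61806 gene IDs of the count table. Levels were measured by poly(A)-selected RNA-seq in 12 libraries, 3 in each of 4 groups. Libraries labelled Hep3B carried a tetracycline-inducible (Tet-on) shRNA, either against CD146 (CD146 sh) or a control (Con sh), so both of these groups share the inducible system. MCAM is the gene for CD146, a cell adhesion molecule. The HepG2 libraries carried CD146 from a vector (CD146oe) or the pLVX vector alone. Hep3B and HepG2 are established lines from human liver tumours, and they were kept in different media (DMEM for Hep3B, MEM for HepG2). Nothing in the labels says that the 3 libraries of a group came from separate cultures, so p-values measure the spread between libraries, which may be technical.

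SNAI, ZEB and TWIST proteins act in EMT largely by switching off epithelial genes such as CDH1, which encodes E-cadherin, while mesenchymal genes are turned on. SNAI and ZEB zinc fingers bind a short DNA element, the E-box CAGGTG or its reverse complement CACCTG, and TWIST proteins are basic helix-loop-helix factors that bind E-boxes more broadly. OVOL1 and OVOL2 repress ZEB genes, GRHL2 maintains epithelial junction genes and opposes ZEB1, and ESRP1 is an RNA-binding protein that sets epithelial splicing. The microRNAs of the miR-200 family bind the 3' UTRs of ZEB1 and ZEB2 and form a mutual repression loop with them. In the liver, GRHL2 is known from bile duct cells more than from hepatocytes.

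Library totals, in units of 1000000 counts, were 14.1 to 18.1 with CD146 sh, 13.8 to 16.7 with Con sh, 13.3 to 16.9 with CD146oe and 12.8 to 16.7 with pLVX. Levels are given as CPM, the count divided by the library total in those units, after TMM scaling of the totals over the 12 libraries. A count of 3 in a library served as the floor of detection and was worth 0.151 to 0.265 CPM. MCAM fell to 22.2 ± 2.204 CPM with CD146 sh, against 105 ± 3.26 CPM with Con sh (SD, n = 3 each), and rose to 2114 ± 22.3 CPM with CD146oe, against 25.5 ± 0.433 CPM with pLVX. The summed level of 10 hepatocyte markers was 0.907, 1.57 and 59.9 CPM in the 3 CD146 sh libraries and 0.429 to 0.920 CPM in the Con sh libraries, against 58275 to 67640 CPM in HepG2. The libraries labelled Hep3B thus held almost none of the defining hepatocyte transcripts, with APOH and TTR at 0 counts in every Con sh library, and they are named by their label. CD146 sh replicate 3 held 298 counts of ALB, where each other library of that label held at most 5.

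Promoter sequences are shown for the only 3 factors for which a window was found, and for 1 target. Levels of these genes differed in pattern between the lines. ZEB1 was detected in every library, ZEB2 and TWIST2 lay at or under the floor in all HepG2 libraries, and CLDN7, a tight junction gene, lay at or under the floor in HepG2 but was abundant in libraries labelled Hep3B. Each window covers 250 bases before to 50 after a transcription start in RefSeq (GRCh38.p14), and the motif searched was CAGGTG or CACCTG, which covers both strands and is set in capitals. ZEB1 has 7 windows, of which the one with the most matches (3) is shown, at chr10:31318966-31319265 on the plus strand. ZEB2 has 1 window, at chr2:144520070-144520369 on the minus strand, and TWIST2 has 1, at chr2:238847835-238848134 on the plus strand. CLDN7 has 2 windows, and the one shown holds 5 matches, at chr17:7262429-7262728 on the minus strand.
ZEB1 promoter: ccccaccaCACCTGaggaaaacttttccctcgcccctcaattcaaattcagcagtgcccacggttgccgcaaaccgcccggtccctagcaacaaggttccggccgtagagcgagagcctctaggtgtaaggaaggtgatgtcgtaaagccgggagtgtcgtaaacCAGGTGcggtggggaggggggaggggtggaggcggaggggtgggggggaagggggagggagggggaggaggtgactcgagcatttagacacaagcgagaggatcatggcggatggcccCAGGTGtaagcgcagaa
ZEB2 promoter: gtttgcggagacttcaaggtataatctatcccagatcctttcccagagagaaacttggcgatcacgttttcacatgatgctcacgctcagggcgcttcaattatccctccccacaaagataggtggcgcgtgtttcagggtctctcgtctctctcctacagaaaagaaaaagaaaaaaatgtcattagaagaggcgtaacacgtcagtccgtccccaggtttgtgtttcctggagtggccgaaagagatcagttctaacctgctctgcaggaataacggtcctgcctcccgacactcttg
TWIST2 promoter: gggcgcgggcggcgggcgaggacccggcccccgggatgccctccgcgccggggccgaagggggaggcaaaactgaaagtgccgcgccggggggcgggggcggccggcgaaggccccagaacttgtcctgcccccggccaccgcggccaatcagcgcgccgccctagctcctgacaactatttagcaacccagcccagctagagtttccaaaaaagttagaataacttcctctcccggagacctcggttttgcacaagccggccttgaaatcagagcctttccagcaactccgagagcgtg
CLDN7 promoter: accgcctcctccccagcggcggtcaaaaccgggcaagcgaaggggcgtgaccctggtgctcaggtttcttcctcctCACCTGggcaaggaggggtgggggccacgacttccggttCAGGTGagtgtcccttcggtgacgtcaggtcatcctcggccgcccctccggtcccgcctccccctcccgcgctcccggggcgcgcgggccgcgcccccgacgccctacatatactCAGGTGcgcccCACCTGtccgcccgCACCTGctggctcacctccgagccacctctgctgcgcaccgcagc

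Neither the ZEB2 nor the TWIST2 window holds the motif. A window of GRHL1, a relative of GRHL2, was searched as well, holds 0 matches and is not shown. Among all 35116 promoter windows of the table, 20.6% hold at least 1 match and 0.635% hold at least 3. The ZEB1 and CLDN7 windows were picked for having the most matches, so these shares do not measure how unusual they are. Of the other ZEB1 windows, 1 holds 1 match and the rest hold 0, and the other CLDN7 window holds 0. The CLDN7 window holds matches at -174, -135, -20, -9 and +6 from the start. The ZEB1 window holds them at -242, -85 and +34. GC content is 71.7% in the CLDN7 window, 66.7% in the TWIST2 window, 61.7% in the ZEB1 window and 49.0% in the ZEB2 window. A match describes letters only and was not tied to binding here.

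The miR-200 family is shown because its target sites were found in ZEB1 and ZEB2 and in none of the other factors searched. In these mature sequences from RefSeq (GRCh38.p14) the seed, bases 2 to 8, is in capitals.
miR-200b-3p: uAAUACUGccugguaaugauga
miR-200c-3p: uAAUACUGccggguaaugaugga
miR-429: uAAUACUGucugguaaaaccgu
miR-200a-3p: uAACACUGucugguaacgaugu
miR-141-3p: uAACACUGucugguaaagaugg

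The first 3 share 1 seed and the last 2 share another, which differs at a single base. Sites for the 2 seeds read CAGTATT and CAGTGTT in DNA letters. Below, the first site of each kind in the 3' UTR of ZEB1 and of ZEB2 is shown with the site in capitals, from the annotated transcript of each gene with the longest 3' UTR (GENCODE version 29, GRCh38).
ZEB1 site for miR-200b-3p at chr10:31527618-31527643, plus strand: attgttttatcttatCAGTATTatca
ZEB1 site for miR-200a-3p at chr10:31528031-31528056, plus strand: caaaatcatcagaatCAGTGTTtgtg
ZEB2 site for miR-200b-3p at chr2:144389049-144389074, minus strand: cgcactaccatacatCAGTATTttta
ZEB2 site for miR-200a-3p at chr2:144389233-144389258, minus strand: tgcaaaaattttgtaCAGTGTTaagg

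The ZEB1 3' UTR (2549 bases) holds 6 sites of the first kind and 3 of the second, and the ZEB2 3' UTR (5370 bases) holds 5 and 4. The shorter 3' UTRs of SNAI1, TWIST1, TWIST2, OVOL1 and OVOL2 (484 to 1878 bases) hold 0 of either kind. SNAI2, GRHL2 and ESRP1 were not searched. Over 19141 genes, 16.0% of such 3' UTRs hold at least 1 site of the first kind and 18.3% at least 1 of the second. The miRNAs themselves were not measured in these poly(A) libraries, and MIR200CHG, the annotated host transcript of miR-200c and miR-141, had 0 counts in all 12.

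ZEB1 was the most abundant factor per unit of length in every group. Its deposited FPKM, which scales counts by gene length and library size, averaged 5.55 ± 0.118 with CD146 sh, 6.07 ± 0.145 with Con sh, 3.03 ± 0.163 with CD146oe and 2.89 ± 0.199 with pLVX (SD, n = 3 each). The 6 EMT-inducing factors summed to 12.8 ± 0.225 FPKM with CD146 sh and 14.5 ± 1.14 FPKM with Con sh, against 3.96 ± 0.343 FPKM with CD146oe and 3.96 ± 0.248 FPKM with pLVX. ZEB1 made up 42.3% to 44.1% of that sum in the CD146 sh libraries, 39.9% to 44.8% in the Con sh libraries, 74.0% to 78.8% in the CD146oe libraries and 69.8% to 78.6% in the pLVX libraries. The ranges of the lines did not overlap.

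**Figure D1:**
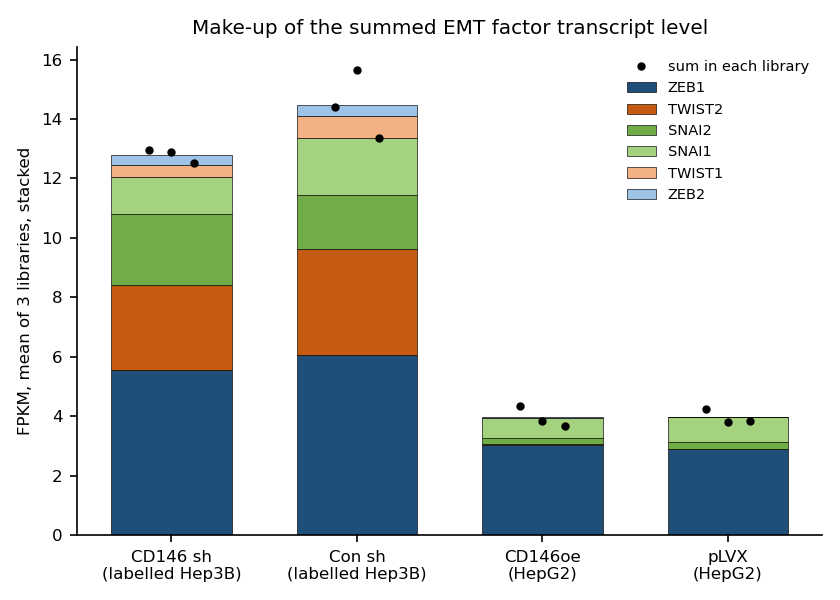
Stacked bars give the mean FPKM of the 6 EMT-inducing factors (3 libraries a group), and points give the summed FPKM of each library. ZEB1 is the largest segment in each group, and TWIST2, SNAI2, TWIST1 and ZEB2 add to it almost only in libraries labelled Hep3B.

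The order below ZEB1 in libraries labelled Hep3B depended on the group. With Con sh the mean FPKM was 3.54 ± 0.566 for TWIST2, 1.91 ± 0.156 for SNAI1, 1.83 ± 0.339 for SNAI2, 0.753 ± 0.107 for TWIST1 and 0.360 ± 0.0265 for ZEB2. With CD146 sh it was 2.86 ± 0.508 for TWIST2, 2.39 ± 0.0954 for SNAI2, 1.26 ± 0.285 for SNAI1, 0.400 ± 0.0529 for TWIST1 and 0.333 ± 0.0306 for ZEB2. SNAI1 and SNAI2 did not differ beyond their spread with Con sh, and neither did TWIST2 and SNAI2 with CD146 sh. ZEB2 stood at 8.46 ± 0.591 CPM with Con sh, yet its FPKM was the lowest of the 6. The gene lengths behind the deposited FPKM are not given, so the order of genes by FPKM depends on lengths that could not be checked. In HepG2, SNAI1 followed ZEB1 at 0.680 ± 0.241 FPKM with CD146oe and 0.827 ± 0.264 FPKM with pLVX, and SNAI2 came next at 0.210 ± 0.0700 and 0.237 ± 0.0451 FPKM in the same groups.

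All 6 EMT-inducing factors were higher in the Con sh libraries labelled Hep3B than in the HepG2 pLVX libraries. Of 18870 genes tested in a fit of all 12 libraries, 83.2% differed, 43.4% being higher and 39.7% lower in Con sh, so that a difference was the rule for these lines. With limma on FPKM + 0.1, 63.7% of the called genes were higher in Con sh, against 52.2% with edgeR, and the median log2 difference of all genes was 0.37, against 0.08. Con sh and pLVX libraries differ in line, vector and medium at once, and these cannot be told apart. In these bulk libraries fewer expressing cells and less RNA per cell cannot be told apart either.

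ZEB2, a zinc-finger repressor related to ZEB1, had 161, 136 and 144 counts in the Con sh libraries, against 1, 0 and 1 in the pLVX libraries. The groups lay far apart, and the ratio of the summed counts, scaled by library size, was 164 (exact 95% interval from counting error only, 45.01 to 1355). TWIST2 had 100, 108 and 100 counts with Con sh, against 0, 1 and 0 with pLVX, a ratio of 228 (40.7 to 9052 by the same interval). TWIST1 had 29, 20 and 22 counts with Con sh, against 0 in every pLVX library. Its mean of 1.35 CPM was at least 5.1-fold higher than the 0.265 CPM that 3 counts are worth in the shallowest pLVX library. The 3 factors were called higher by edgeR's quasi-likelihood test in this comparison. They passed the filter on low counts only through libraries labelled Hep3B, which fixed the direction beforehand. These calls thus add no support to the counts above, and no p-value is given.

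SNAI2, also called SLUG, stood at 5.69, 6.24 and 4.28 CPM with Con sh, against 0.708, 0.871 and 1.03 CPM with pLVX. The lowest Con sh library was above the highest pLVX library, and the log2 difference was 2.60 (SE 0.24, edgeR adjusted p = 4.3e-15). ZEB1 stood at 46.5, 48.9 and 46.7 CPM with Con sh, against 29.4, 25.8 and 29.1 CPM with pLVX. Here the lines differed by 0.76 on the log2 scale (SE 0.06, edgeR adjusted p = 2.8e-16). SNAI1 stood at 3.06, 3.09 and 2.65 CPM with Con sh, against 2.03, 1.68 and 1.03 CPM with pLVX. Its log2 difference was 0.89 (SE 0.25, edgeR adjusted p = 0.00118). ZEB1, SNAI1 and SNAI2 were thus above the floor in every library of both lines, and ZEB2, TWIST1 and TWIST2 were detected above the floor in libraries labelled Hep3B alone.

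**Figure D2:**
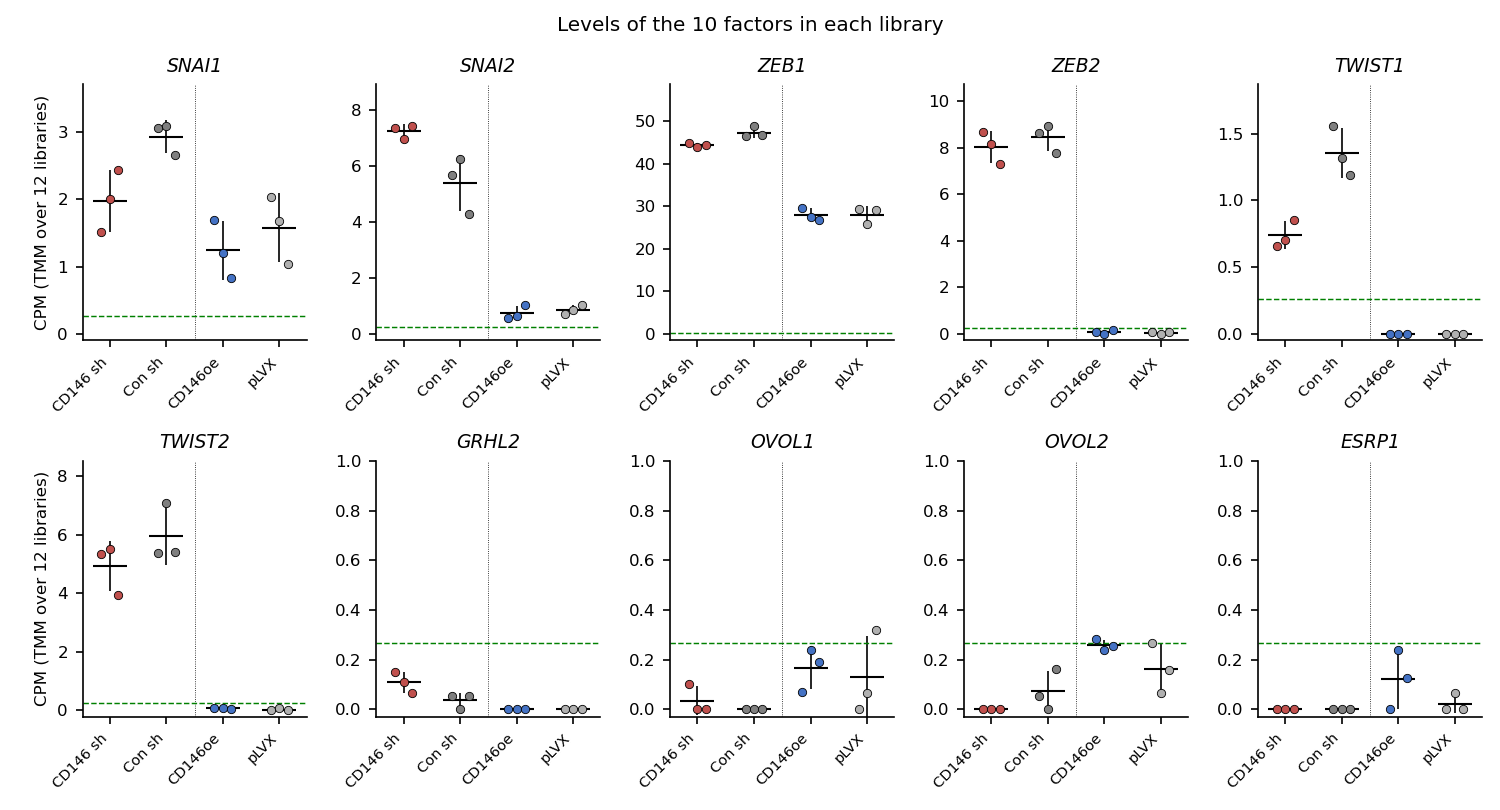
Points are CPM of single libraries in the 4 groups, horizontal bars are means, vertical bars are SD (n = 3), and the dashed line is the highest value that 3 counts take in a library (0.265 CPM). The 6 EMT-inducing factors are higher with Con sh than with pLVX, SNAI1 with CD146 sh overlaps the HepG2 groups, and GRHL2, OVOL1, OVOL2 and ESRP1 stay near or under the dashed line throughout.

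The 4 epithelial factors were almost absent from all groups. GRHL2, OVOL1, OVOL2 and ESRP1 together had 8 counts in the 3 CD146 sh libraries, 6 in the Con sh libraries, 23 in the CD146oe libraries and 12 in the pLVX libraries. Of their 48 values in single libraries, 45 were at or under 3 counts, and the highest was 4. GRHL2, the grainyhead factor of epithelial junctions, had 3, 2 and 1 counts with CD146 sh, 1, 0 and 1 with Con sh, and 0 in every HepG2 library. ESRP1 had 0 in every library labelled Hep3B, 0, 3 and 2 with CD146oe, and 0, 1 and 0 with pLVX. OVOL1 had 2, 0 and 0 counts with CD146 sh, 0 in each Con sh library, 1, 3 and 3 with CD146oe and 0, 1 and 4 with pLVX. OVOL2 had 0 in each CD146 sh library, 1, 0 and 3 counts with Con sh, 4, 3 and 4 with CD146oe and 3, 1 and 2 with pLVX. These counts did not pass the filter on low values in any comparison, so no fold is given. With no filter, edgeR called OVOL1 lower in Con sh than in pLVX libraries (adjusted p = 0.0378) on those few counts, and otherwise differences of this size were not detectable at this depth. OVOL2 overlaps SNX5 on its own strand in the annotation, so reads there could fall to either gene.

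Lowering CD146 in libraries labelled Hep3B moved 3 of the 6 EMT-inducing factors that could be tested, in different directions. SNAI2 was higher with CD146 sh, SNAI1 and TWIST1 were lower, and ZEB1, ZEB2 and TWIST2 were not called. In the same comparison 55.3% of 16968 genes tested were called, 26.8% higher and 28.5% lower, so that the 3 of 6 factors called is near the share among all genes. The median log2 fold change was -0.17 over the 6 factors tested and 0.00 over all genes tested. With DESeq2 0 of the factors were called, although 3 had an unadjusted p under 0.05.

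SNAI2 stood at 7.36, 6.98 and 7.43 CPM with CD146 sh, against 5.69, 6.24 and 4.28 CPM with Con sh. All 3 CD146 sh libraries were above all Con sh libraries, and the log2 fold change was 0.43 (SE 0.14, edgeR adjusted p = 0.00688). Without Con sh replicate 3, the lowest library, it was 0.28 and the call was lost (adjusted p = 0.102). DESeq2 gave an adjusted p of 0.0762.

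SNAI1, the SNAIL protein's gene and an early repressor of CDH1, stood at 1.51, 2.001 and 2.43 CPM with CD146 sh, against 3.06, 3.09 and 2.65 CPM with Con sh. The groups did not overlap, and the log2 fold change was -0.58 (SE 0.21, edgeR adjusted p = 0.0182). These are 30, 37 and 37 counts with CD146 sh, against 57, 47 and 49 with Con sh. The call was lost without CD146 sh replicate 1 (log2 fold change -0.41, adjusted p = 0.146), without Con sh replicate 1 (adjusted p = 0.0534) or without Con sh replicate 2 (adjusted p = 0.0507), and with DESeq2 (adjusted p = 0.121).

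TWIST1 had 13 counts in each CD146 sh library, against 29, 20 and 22 in the Con sh libraries. Every CD146 sh library lay below every Con sh library, at a log2 fold change of -0.89 (SE 0.31, edgeR adjusted p = 0.0130). Without CD146 sh replicate 1 or without Con sh replicate 1 the adjusted p was 0.0597 and 0.0719, and DESeq2 gave 0.113. The exact 2-sided permutation test on CPM gave p = 0.1 for each of SNAI1, SNAI2 and TWIST1, the smallest that 3 against 3 libraries allow.

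ZEB1 stood at 44.9, 43.9 and 44.3 CPM with CD146 sh, against 46.5, 48.9 and 46.7 CPM with Con sh. The groups did not overlap, yet the log2 fold change was only -0.09 (SE 0.06, edgeR adjusted p = 0.156), with a 95% interval (normal, from the SE) from -0.20 to 0.02. ZEB2 stood at 8.67, 8.17 and 7.30 CPM with CD146 sh, against 8.64, 8.94 and 7.80 CPM with Con sh. These ranges overlapped, and the interval of its log2 fold change ran from -0.29 to 0.16. TWIST2 stood at 5.34, 5.52 and 3.95 CPM with CD146 sh, against 5.37, 7.10 and 5.42 CPM with Con sh, with CD146 sh replicate 3 the lowest. Its interval ran from -0.54 to 0.05. ZEB1-AS1, which is read from the opposite strand and overlaps ZEB1 in the annotation, rose to 7.69 ± 0.125 CPM with CD146 sh, against 4.32 ± 1.26 CPM with Con sh (edgeR log2 fold change 0.84, SE 0.15, adjusted p = 1.1e-05). The reads of the 2 genes cannot be told apart without strand.

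Raising CD146 in HepG2 changed 0 of the 3 factors that could be tested there with edgeR, with DESeq2 and with limma, and 0 had an unadjusted p under 0.05 in any of these. In that comparison 19.8% of 15300 genes tested were called, 9.55% higher and 10.3% lower. With limma on FPKM + 0.1, 76.3% of the called genes were higher with CD146oe, against 48.1% with edgeR. ZEB1 stood at 29.7, 27.4 and 26.9 CPM with CD146oe, against 29.4, 25.8 and 29.1 CPM with pLVX. The libraries overlapped fully, and the interval of the log2 fold change ran from -0.14 to 0.14. SNAI1 stood at 1.69, 1.20 and 0.827 CPM with CD146oe, against 2.03, 1.68 and 1.03 CPM with pLVX. The groups overlapped, and its interval ran from -0.98 to 0.26. SNAI2 stood at 0.564, 0.641 and 1.02 CPM with CD146oe, against 0.708, 0.871 and 1.03 CPM with pLVX, with an interval from -0.98 to 0.55. ZEB2 had 1, 0 and 3 counts with CD146oe, against 1, 0 and 1 with pLVX. TWIST2 had 1 count in each CD146oe library, against 0, 1 and 0 with pLVX, and TWIST1 had 0 in all 6 HepG2 libraries, where 0 counts allow up to 0.265 CPM.

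**Figure D3:**
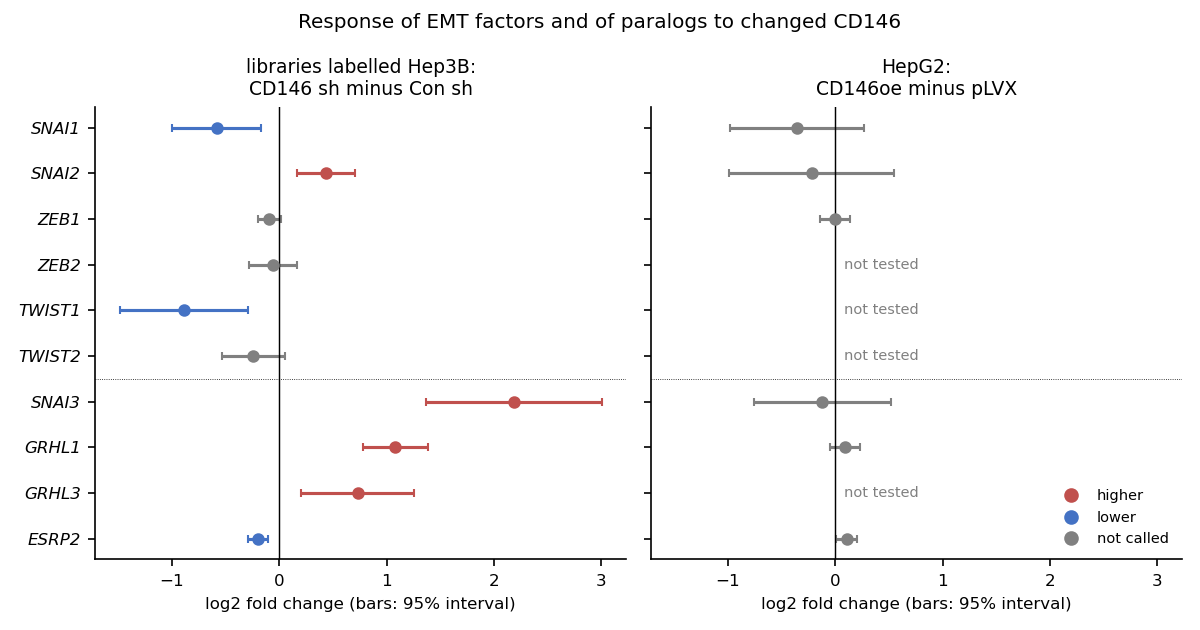
Points are edgeR log2 fold changes with 95% intervals (normal, from the SE), for the EMT-inducing factors (above the dotted line) and paralogs (below it). SNAI2 lies right of 0 and SNAI1 and TWIST1 left of 0 in libraries labelled Hep3B, while no factor or paralog is called in HepG2.

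The response to higher CD146, taken as CD146oe minus pLVX in HepG2 and as Con sh minus CD146 sh in libraries labelled Hep3B, was compared between lines for the 3 factors tested in both. Across 18870 genes 36.4% differed. Only SNAI1 passed among the 3, at a log2 difference of -0.94 (HepG2 minus Hep3B, SE 0.38, edgeR adjusted p = 0.0497). SNAI1 was lower where CD146 was lowered and was not called where it was raised, but the call of the difference was lost with DESeq2 (adjusted p = 0.150), with limma, without the filter on low counts and in 9 of 12 fits that left out a library. The differences of SNAI2 and ZEB1 had intervals from -0.57 to 1.01 and from -0.27 to 0.09. The line and the way CD146 was changed cannot be told apart in this contrast.

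Close paralogs of 2 of the epithelial factors were well expressed. ESRP2, which shares splicing targets with ESRP1, was abundant in all 12 libraries. It stood at 73.4, 80.7 and 79.3 CPM with CD146 sh, against 87.1, 88.6 and 91.4 CPM with Con sh, and the CD146 sh libraries were the lower ones (edgeR log2 fold change -0.20, SE 0.05, adjusted p = 0.000711). In the HepG2 libraries it stood at 76.0, 68.1 and 76.4 CPM with CD146oe, against 64.0, 70.2 and 70.3 CPM with pLVX, and was not called (adjusted p = 0.146, 0.0459 without CD146oe replicate 2). Its FPKM averaged 16.2 ± 0.658 with CD146 sh, 19.0 ± 0.413 with Con sh, 13.2 ± 0.823 with CD146oe and 11.7 ± 0.688 with pLVX, above ZEB1 in each group.

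GRHL1, the grainyhead paralog of GRHL2, stood at 8.27, 7.95 and 6.12 CPM with CD146 sh, against 3.43, 4.34 and 2.98 CPM with Con sh. The groups did not overlap, and the rise of 1.08 on the log2 scale (SE 0.15, edgeR adjusted p = 1.2e-07) passed every alternative run. In HepG2 GRHL1 stood at 28.6, 28.0 and 27.3 CPM with CD146oe, against 27.2, 24.9 and 26.6 CPM with pLVX, and was not called (adjusted p = 0.422). It was lower in Con sh than in pLVX libraries by -2.88 on the log2 scale (SE 0.11, edgeR adjusted p = 6.3e-31). Of 4 paralogs tested between these groups, 2 were higher and 2 lower in Con sh, beside 83.2% of all genes called. ESRP2 averaged 89.0 CPM with Con sh, against 68.2 CPM with pLVX, and SNAI3 averaged 0.231 CPM, against 1.26 CPM. GRHL3 had 71 summed counts with Con sh, against 0 with pLVX, and passed the filter only through libraries labelled Hep3B.

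SNAI3, a SNAI paralog with a weaker link to EMT, had 21, 15 and 21 counts with CD146 sh, against 4 in each Con sh library. The groups lay apart, at a log2 fold change of 2.18 (SE 0.42, adjusted p = 2.6e-05 in edgeR). In HepG2 libraries SNAI3 had 22, 14 and 14 counts with CD146oe, against 12, 24 and 14 with pLVX, and was not called (adjusted p = 0.850). SNAI3 overlaps SNAI3-AS1 on the opposite strand. SNAI3-AS1 rose as well, to 7.60 ± 0.401 CPM with CD146 sh, against 2.35 ± 0.585 CPM with Con sh, and stood at 9.11 ± 0.816 CPM with CD146oe, against 9.98 ± 1.42 CPM with pLVX. Reads of the 2 genes cannot be told apart without strand, so the SNAI3 values are uncertain. GRHL3 had 56, 29 and 36 counts with CD146 sh, against 34, 22 and 15 with Con sh, and these overlapped. Its call in edgeR (log2 fold change 0.73, SE 0.27, adjusted p = 0.0193) was lost with DESeq2, with limma and without CD146 sh replicate 1 or 3 or Con sh replicate 3 (adjusted p 0.0526 to 0.185 in these fits). OVOL3 was not tested in any comparison.

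**Figure D4:**
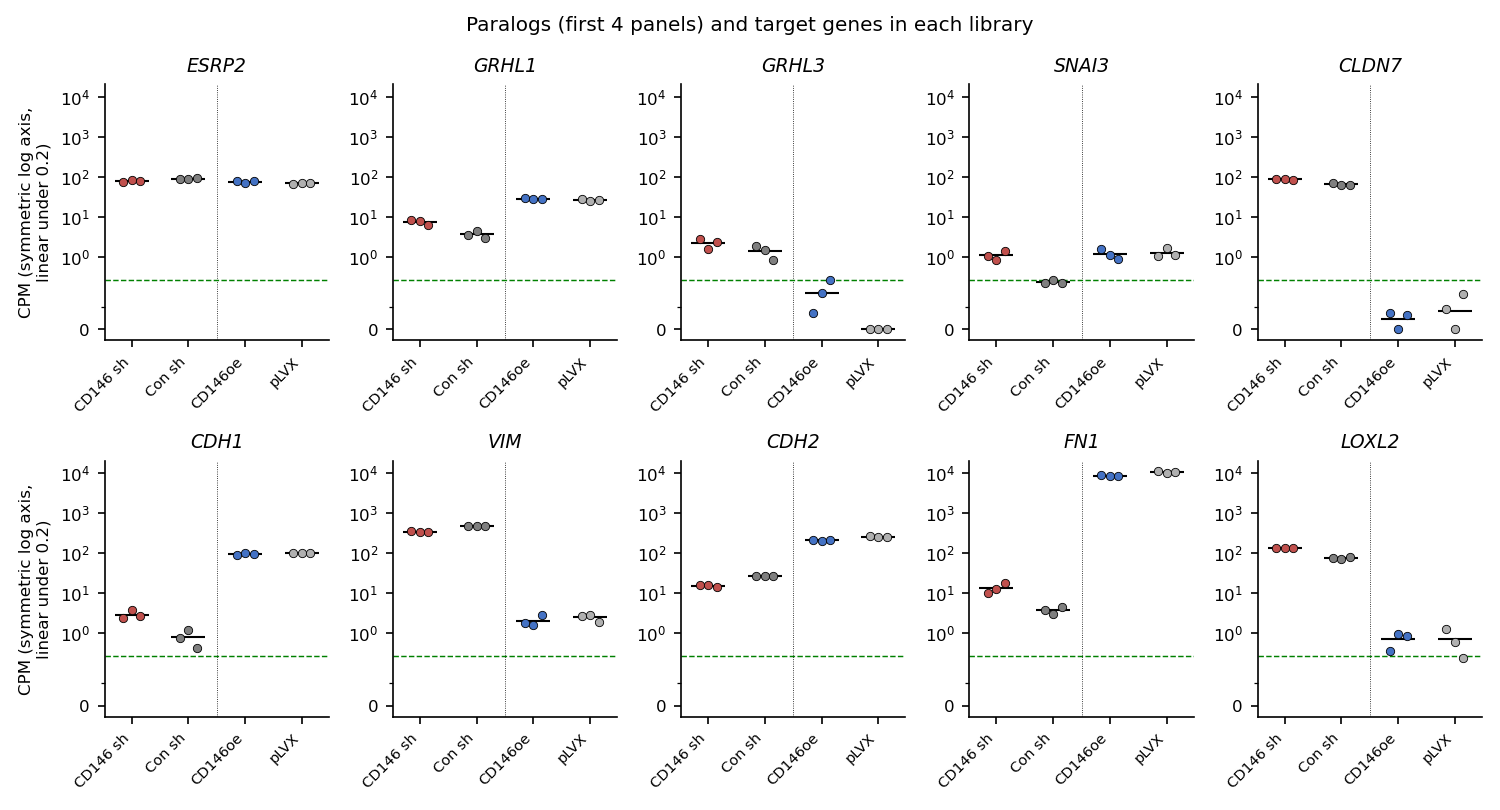
Points are CPM of single libraries and bars are means, on a symmetric log axis, with the highest value of 3 counts dashed. ESRP2 is at a like level in all groups. GRHL1, CDH1, CDH2 and FN1 are higher in HepG2, and CLDN7, VIM and LOXL2 are higher in libraries labelled Hep3B.

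Of 21 epithelial genes known as targets of these factors and tested between the lines, 6 were higher and 12 lower in Con sh than in pLVX libraries (median log2 difference -0.49, against 0.08 over all genes), and the share called was near the 83.2% of all genes. CDH1, CDH2 and FN1 are named here as textbook read-outs of EMT, outside the naming rule. CDH1 stood at 0.751, 1.18 and 0.433 CPM with Con sh, against 100, 99.4 and 98.9 CPM with pLVX. VIM, the intermediate filament vimentin, stood at 478, 488 and 483 CPM with Con sh, against 2.65, 2.82 and 1.91 CPM with pLVX. Both lay far apart between lines, CDH1 on the HepG2 side and VIM on the side labelled Hep3B. Other genes of the lists ran the other way. CLDN7, whose promoter is printed above, averaged 64.98 ± 4.02 CPM with Con sh, against 0.0825 ± 0.0797 CPM with pLVX. N-cadherin's gene CDH2 averaged 26.97 ± 0.611 CPM with Con sh, against 257 ± 3.81 CPM with pLVX, and the fibronectin gene FN1 averaged 3.83 ± 0.731 CPM, against 10587 ± 375 CPM.

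With CD146 sh, 8 of 18 epithelial target genes tested were higher than with Con sh, 2 were lower and 8 were not called (median log2 fold change 0.25), so that the share called was near the 55.3% of all genes. The summed level of 6 cholangiocyte markers was 149 to 153 CPM with CD146 sh and 171 to 186 CPM with Con sh, and its part in these counts was not tested. CDH1 stood at 2.37, 3.68 and 2.70 CPM with CD146 sh, against 0.751, 1.18 and 0.433 CPM with Con sh, a log2 fold change of 1.92 (SE 0.28, edgeR adjusted p = 2.5e-07). Every CD146 sh library was above every Con sh library, yet all were far below HepG2. CGN, which encodes the junction protein cingulin, rose to 44.9 ± 3.03 CPM with CD146 sh, against 27.4 ± 2.41 CPM with Con sh (log2 fold change 0.71). CLDN7 rose to 84.9 ± 1.07 CPM, against 64.98 ± 4.02 CPM (0.38). EPCAM, an epithelial adhesion molecule, did not pass the test (52.8 ± 1.86 CPM with CD146 sh and 52.9 ± 4.38 CPM with Con sh). In HepG2, 6 of 19 were higher and 0 lower with CD146oe, beside 9.55% higher and 10.3% lower over all genes. The 6 cholangiocyte markers, which include EPCAM, summed to 1300 to 1328 CPM with CD146oe and 1006 to 1111 CPM with pLVX, with CFTR at 0 counts in both groups and all 4 markers tested higher, and their part in this count was not tested. EPCAM rose to 232 ± 5.22 CPM with CD146oe, against 179 ± 3.91 CPM with pLVX (log2 fold change 0.37), and SPINT1, a protease inhibitor of epithelia, rose to 6.65 ± 0.518 CPM, against 2.25 ± 0.762 CPM (1.52). CDH1 was not called there (log2 fold change -0.09, adjusted p = 0.173).

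Of 14 mesenchymal target genes tested with CD146 sh, 9 were higher and 4 lower (median log2 fold change 0.41), beside 26.8% higher and 28.5% lower over all genes. VIM fell to 345 ± 1.42 CPM with CD146 sh, against 483 ± 4.80 CPM with Con sh (log2 fold change -0.48), and CDH2 fell to 15.3 ± 1.35 CPM, against 26.97 ± 0.611 CPM (-0.81). LOXL2, a collagen cross-linking oxidase, rose to 134 ± 3.14 CPM, against 74.7 ± 4.46 CPM (0.84), and FN1 rose to 13.5 ± 4.06 CPM, against 3.83 ± 0.731 CPM (1.77). SPARC, a matrix protein, stood at 5.39, 6.22 and 1.58 CPM with CD146 sh, against 1.02, 0.657 and 0.867 CPM with Con sh, with CD146 sh replicate 3 the lowest of its group. FN1 stood at 9.93, 12.5 and 17.9 CPM with CD146 sh, highest in replicate 3, the library with 298 counts of ALB, and replicates 1 and 2 also lay above all Con sh libraries. The summed level of 9 fibroblast and stellate markers was 88.8 to 109 CPM with CD146 sh and 54.0 to 62.6 CPM with Con sh, and that of 6 endothelial markers was 21.8 to 22.9 CPM and 2.63 to 3.20 CPM, with KDR at 0 counts in both groups and LUM and TEK at 0 with Con sh. Their part in these counts was not tested. In HepG2, 2 of 10 were higher and 2 lower with CD146oe, beside 9.55% higher and 10.3% lower over all genes. SPARC rose to 122 ± 5.85 CPM, against 55.1 ± 3.33 CPM with pLVX (1.15), and CDH2 and FN1 fell (-0.31 and -0.29).

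Of the other epithelial transcription factors and splice regulators, 5 of 12 tested were higher, 3 lower and 4 not called with CD146 sh, beside 55.3% of all genes called. This list includes the paralogs GRHL1, GRHL3, OVOL3 and ESRP2 described above, so its counts are not of separate genes. With CD146oe 5 of 11 were higher, 0 lower and 6 not called, beside 19.8% of all genes called. KLF5, a zinc-finger factor of epithelia, rose to 146 ± 15.4 CPM with CD146 sh, against 108 ± 3.11 CPM with Con sh (log2 fold change 0.44), and to 4.46 ± 0.472 CPM with CD146oe, against 2.66 ± 0.332 CPM with pLVX (0.76, lost with DESeq2 at an adjusted p of 0.0627). EHF, an ETS factor of epithelia, rose to 8.93 ± 1.58 CPM with CD146 sh, against 4.38 ± 0.339 CPM with Con sh (1.03). ELF3, a related ETS factor, rose to 14.6 ± 1.11 CPM with CD146oe, against 6.28 ± 1.66 CPM with pLVX (1.22), and its log2 fold change with CD146 sh was 0.00. RBM47, an RNA-binding protein, rose to 25.8 ± 1.45 CPM with CD146oe, against 15.02 ± 0.927 CPM with pLVX (0.77), and fell to 16.2 ± 1.08 CPM with CD146 sh, against 20.5 ± 1.24 CPM with Con sh (-0.34).

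Among other EMT-linked transcription factors, which include the paralog SNAI3, 4 of 12 tested were higher and 6 lower with CD146 sh, beside 55.3% of all genes called. With CD146oe 2 of 11 were higher and 1 lower, beside 19.8% of all genes called. FOXQ1 rose to 19.3 ± 0.340 CPM with CD146 sh, against 13.6 ± 0.785 CPM with Con sh (log2 fold change 0.50). ZNF281 fell with CD146 sh (-0.33) and rose with CD146oe (0.22). TCF12, a helix-loop-helix partner of TWIST proteins, and ID1, which blocks such partners, fell with CD146 sh (-0.31 and -0.47).

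SNAI and ZEB proteins repress through corepressors and chromatin partners. Of 18 such genes tested with CD146 sh, 2 were higher, 9 lower and 7 not called (median log2 fold change -0.12). Over all genes 26.8% were higher and 28.5% lower there. With CD146oe 1 of 17 was higher and 4 lower, beside 9.55% higher and 10.3% lower over all genes. RCOR1, the CoREST scaffold, fell to 69.5 ± 3.96 CPM with CD146 sh, against 98.9 ± 1.07 CPM with Con sh (-0.51). SUV39H1, a histone H3 methyltransferase, fell to 24.9 ± 0.645 CPM, against 38.0 ± 1.87 CPM (-0.61). EED, a polycomb subunit, and HDAC2, a histone deacetylase, fell by 0.56 and 0.37 on the log2 scale.

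Genes listed for the stability of SNAI1 and its relatives gave 6 higher and 5 lower of 17 tested with CD146 sh. With CD146oe they gave 1 higher and 1 lower of 18. Over all genes 55.3% and 19.8% were called in these comparisons. USP37, a deubiquitinase, and the kinase gene CSNK1E rose with CD146 sh (log2 fold changes 0.72 and 0.34), and PPARG fell (-0.74). CTDSPL, a small phosphatase, fell with CD146 sh (-0.47) and with CD146oe (-0.48). Of 17 TGF-beta, NOTCH and HIF inputs tested with CD146 sh, 4 were higher and 7 lower, beside the same 55.3%. With CD146oe 4 of 16 were higher and 3 lower, beside the same 19.8%. SMAD3 and SMAD2, the signal carriers of TGF-beta, rose with CD146 sh (0.77 and 0.54), as did SKI, their corepressor (0.41), while the ligand gene TGFB1 fell (-0.50). SMAD3, SKI and TGFB1 did not pass the test in HepG2. SMAD2 was called lower with CD146oe (-0.12, edgeR adjusted p = 0.0483), but lost the call in every alternative run, leaving out any library included (adjusted p 0.0520 to 0.723).

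Gene totals of 11 genes whose splicing ESRP proteins control were tested in both lines. With CD146 sh 3 were higher and 2 lower, beside 55.3% of all genes called. With CD146oe 1 was higher and 0 lower, beside 19.8% of all genes called. CD44, a hyaluronan receptor, rose with CD146 sh (0.52), ARHGEF11 and SCRIB fell (-0.50 and -0.32), and MBNL2 rose in both (0.23 with CD146 sh and 0.33 with CD146oe). Gene totals do not show which isoforms were made. Of the antisense neighbours and miRNA hosts, 4 of 8 were tested with CD146 sh. ZEB1-AS1, SNAI3-AS1 and MIR34AHG (0.51) were higher and MIR17HG lower (-0.49), beside 55.3% of all genes called. In HepG2, 4 were tested and 1, MIR34AHG, was higher (0.23), beside 19.8% of all genes called. The MIR34AHG call was lost without CD146oe replicate 1 (0.18, edgeR adjusted p = 0.0596).

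**Figure D5:**
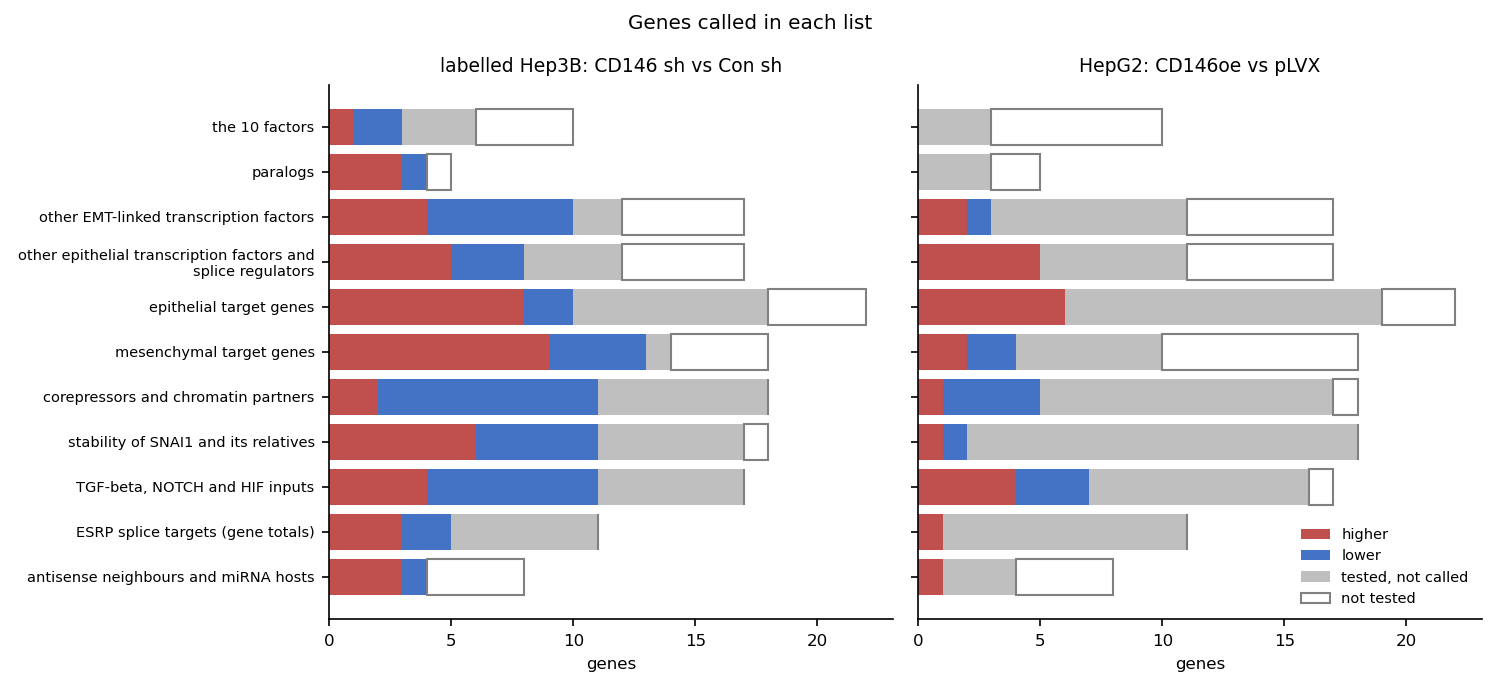
Bars count the genes of each list that were higher, lower, tested but not called, or not tested, in the 2 comparisons of CD146. Paralogs are counted in their own bar and again in the lists of other factors. The factors themselves show 3 calls with CD146 sh and 0 with CD146oe, beside 55.3% and 19.8% of all genes tested.

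For each detected factor, the protein-coding genes with the most similar levels over the 12 libraries were taken by Pearson's r of log2(CPM + 0.5), as a description with no test, since the 2 lines dominate any such likeness. ZEB2 was followed by FXYD5, COL15A1 and PDZD4, each at r = 0.999. TWIST2 was followed by RAET1E, IFI16 and CT45A10 (0.998 each), TWIST1 by PPDPF (0.997), CAVIN3 and ZNF740 (0.996 each), ZEB1 by RASSF1, AMIGO1 and POGZ (0.996 each), and SNAI2 by VPS29 (0.995), MAP4 and BAG1 (0.993 each). For these 5 factors 1826 to 2680 of about 11618 genes exceeded r = 0.95, so the named genes stand for a large class. SNAI1 had no gene above 0.95, and PARPBP was nearest at 0.932, followed by ENDOG at 0.919 and NDUFA9 at 0.912.

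Gene positions were taken from GENCODE version 29 (GRCh38). SNAI1 lies on chromosome 20 from 49982999 to 49988886 (plus strand) and SNAI2 on chromosome 8 from 48917604 to 48921740 (minus strand), neither with an overlapping gene. ZEB1 lies on chromosome 10 from 31318495 to 31529814 (plus strand) and overlaps 3 annotated genes, and ZEB2 lies on chromosome 2 from 144364364 to 144524583 (minus strand) and overlaps 6. TWIST1 lies on chromosome 7 from 19020991 to 19117672 (minus strand) and overlaps 1, and TWIST2 lies on chromosome 2 from 238848032 to 238910543 (plus strand) and overlaps 0.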

How the data were processed

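The authors deposited a table of whole-number read counts keyed by Ensembl ID. A second deposited table holds FPKM. For a given gene, FPKM tracked the count with a deviation of at most 0.518% over 3807 genes with at least 500 counts in every library. Reads were handled with HTSeq 0.6.1, HISAT2 2.2.1 and cutadapt 1.9.1, per the submitters' processing notes. Build, annotation and strand setting are not given in the sources used here, so overlapping and antisense genes may share reads. Symbols were found for 61757 of 61806 IDs.

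Testing used edgeR 4.0.16 under R 4.3.3, by quasi-likelihood (TMM, filterByExpr), 2-sided, with Benjamini-Hochberg adjustment over all genes tested, and called at an adjusted p under 0.05. Each line was fitted alone; comparisons between lines used a fit of all 12 libraries. The SE was derived from the F statistic, as log2 fold change over root F. Alternatives were DESeq2 1.42.0, no filter on low counts, 1 fit of 12 libraries, limma 3.58.1 on log2(FPKM + 0.1) or log2(FPKM + 1), a replicate block and leaving out each library. The procedure was tested on simulated data in which every gene had the same spread setting beyond counting error. That run does not show how reliable calls at low counts are, such as those of SNAI1 and TWIST1. Replicates were not duplicates of each other, with a chi-square of 1.74 to 3.93 per gene, and each library counted as 1. Titles number the shRNA libraries 1 to 3 within a group, which might denote hairpins; the treatment label is the same, and they were taken as replicates.

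The 10 factors, the lists and the tests were chosen with earlier results of these data known. The text names the factors, MCAM, 5 paralogs, up to 4 genes per list with the smallest adjusted p (called, no overlap of groups, 3 CPM or more in the higher group), and the 3 most similar genes per factor. A gene selected by the rule is not reported here. CDH1, CDH2 and FN1 were added after their values were seen. No sequence was printed for the factors on chromosome 8, and promoter windows were found for 3 of the other 7 factors. Intervals of the ratios of summed counts, and floors, cover counting error only; those of fold changes come from the edgeR SE and include the spread between libraries.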

Additional observations from a re-analysis of the deposited data

Results flagged for a closer look

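Among the 3 factors and 3 paralogs tested in both lines, the response to higher CD146 differed between the lines in 3 genes. This was the edgeR fit of all 12 libraries (HepG2 minus Hep3B, log2 scale), in which 36.4% of 18870 genes differed. GRHL1 differed by 1.18 (adjusted p = 1.5e-08) and SNAI3 by 2.06 (adjusted p = 0.00219), both higher with CD146 sh than with Con sh and neither called in HepG2. SNAI3 overlaps SNAI3-AS1, so its value is uncertain. SNAI1 differed by -0.94 (edgeR adjusted p = 0.0497). Its call was lost with DESeq2, limma, no filter on low counts, the replicate block and in 9 of 12 fits that left out a library. Line and way of changing CD146 cannot be told apart in these 3 differences.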

How the results depend on the processing

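The 6 EMT-inducing factors were called higher in Con sh than in pLVX libraries in every alternative run (with no filter on low counts OVOL1 was called too, as lower), and 0 were called between CD146oe and pLVX in every alternative. ZEB2, TWIST1 and TWIST2 passed the filter only through libraries labelled Hep3B, so their calls between the lines add no support. The calls between CD146 sh and Con sh were less stable: 3 factors with edgeR, 0 with DESeq2, and 1 to 3 when a library was left out. For the difference between lines, the count of 1 (SNAI1) became 0 with DESeq2, with no filter on low counts, with either limma fit and with the replicate block, and 0 or 1 when a library was left out. DESeq2 called 1642 genes in HepG2, against 3037 with edgeR. The cause of these changes was not tested. With no filter on low counts the median log2 difference between lines in response was 0.11 over all genes, against 0.04. Same-numbered libraries shared little deviation over all genes (correlations 0.00130 to 0.0389, against -0.0341 to 0.0142 for different numbers). Such values cannot show whether equal numbers mark a shared culture or day. The replicate block left 3 factors called between CD146 sh and Con sh, and changed SNAI1 in the difference between lines (edgeR adjusted p = 0.0521). Unscaled CPM moved 7 factor levels by more than their SD, such as ZEB1 with Con sh (52.6 CPM unscaled). Without CD146 sh replicate 3, an alternative added after the data were seen, the factors still gave 1 higher and 2 lower, and mesenchymal target genes gave 11 higher and 4 lower of 16 tested. TWIST1 and the 4 epithelial factors are limited by depth, with at most 29 counts in a library.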
